A study of Arabidopsis thaliana with 12 samples.

Results

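Light signalling and circadian clock genes are described here by the chromatin regions whose accessibility differed between *h3.3ko* and Col mature seeds of *Arabidopsis*. The 46 genes were listed by role and locus code, out of 27444 protein-coding genes of the 5 nuclear chromosomes, and all 46 were found in the annotation. The list uses no measured value, but it was drawn up with earlier results of these data known, so its counts are not independent evidence. They comprise 32 light signalling genes (photoreceptors, PIFs, other light-regulated transcription factors, the COP1/SPA ligase with DET1, the phyA import and FHY3/FAR1 genes, and SOM) and 14 clock genes. A gene was counted as having a region when a listed region shared 1 bp or more with its body or with the 1 kb that precedes its transcription start site (TSS).

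Accessibility was measured by ATAC-seq, in which the Tn5 transposase cuts and tags DNA that is not packed against nucleosomes. The *h3.3ko* seeds lack all genes for the histone variant H3.3: *htr4* and *htr5* mutations made with CRISPR-Cas9 are combined with a T-DNA insertion in *htr8*. They were sorted, by their lack of a seed mCherry signal, from the progeny of *h3.3ko* plants heterozygous for a rescuing *pHTR5::HTR5* transgene, so their mother plants carried a working *HTR5*. The Col seeds are wild type, and seeds of both genotypes were dry, after-ripened and not imbibed. Sorted nuclei of whole seeds were used, with 2 biological replicates per genotype, and the labels list 12 libraries in 6 groups, of which only the mature seed groups bear on these lists. Whole seeds hold embryo, endosperm and seed coat. The deposited lists give 3278 regions with decreased and 3436 with increased accessibility in *h3.3ko* seeds, as called by the authors, with no level per library. Tissue markers, depth and replicate spread could therefore not be checked, and the counts below are descriptions with no test.

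Seeds use light to time germination. Phytochromes are red and far-red light receptors, and active phytochrome removes PIF transcription factors such as PIF1, which holds back germination in the dark through targets that include *SOM*. Cryptochromes, phototropins and the ZTL family sense blue light, and UVR8 senses UV-B. In darkness the COP1/SPA ubiquitin ligase destroys light-promoting factors such as HY5. The circadian clock is a loop of repressors: CCA1 and LHY act around dawn, the PRR proteins follow one another through the day, and LUX, ELF3 and ELF4 form a complex in the evening. Several of these factors bind short DNA words, of which the G-box (CACGTG, bound by PIF and HY5 type factors), the evening element (AAATATCT, bound by CCA1 and LHY) and CACGCGC (bound by FHY3 and FAR1) are shown next.

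The sequences below are stretches of TAIR10.1 inside decreased regions and outside annotated genes. They are shown because G-boxes and evening elements fell mostly in different sets of clock genes. Among the clock genes, the *LUX* region held both words, and its G-box lies outside the stretch printed for it. The *PIF6* region also held an evening element and the *ELF4* region also held CACGCGC, outside their printed stretches. Each stretch is written 5′ to 3′ on the strand of its gene. Capitals mark every match to the 3 words in either orientation, so AGATATTT is an evening element read from the other strand. The first set holds G-boxes or CACGCGC at *PHYB* (chr2:8139561-8139677, plus strand), *PIF6* (chr3:22991324-22991394, minus), *FHL* (chr5:437209-437322, plus), *FHY1* (chr2:15802894-15802954, minus), *CCA1* (chr2:19245371-19245430, plus), *LHY* (chr1:37919-37978, minus), *PRR7* (chr5:642199-642258, minus) and *PRR9* (chr2:19232336-19232395, plus).
PHYB: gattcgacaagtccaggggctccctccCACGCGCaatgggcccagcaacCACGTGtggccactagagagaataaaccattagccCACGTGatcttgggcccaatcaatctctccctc
PIF6: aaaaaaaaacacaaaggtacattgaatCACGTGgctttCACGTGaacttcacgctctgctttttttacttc
FHL: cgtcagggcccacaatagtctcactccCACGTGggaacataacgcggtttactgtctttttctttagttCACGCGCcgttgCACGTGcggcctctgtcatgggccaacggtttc
FHY1: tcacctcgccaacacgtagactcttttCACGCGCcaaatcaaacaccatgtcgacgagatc
CCA1: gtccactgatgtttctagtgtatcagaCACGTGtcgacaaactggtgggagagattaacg
LHY: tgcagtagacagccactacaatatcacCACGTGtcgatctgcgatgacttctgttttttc
PRR7: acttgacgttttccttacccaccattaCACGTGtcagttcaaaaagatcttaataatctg
PRR9: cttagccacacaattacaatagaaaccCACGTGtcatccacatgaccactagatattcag

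The other set holds evening elements at *TOC1* (chr5:24674785-24674846, plus strand), *GI* (chr1:8060916-8061008, plus), *ELF4* (chr2:16735159-16735230, minus), *LUX* (chr3:17182945-17183024, plus) and *FKF1* (chr1:25508333-25508487, plus). The *FKF1* stretch has 3 matches within 155 bases, and the *ELF4* stretch has a pair in opposite orientation.
TOC1: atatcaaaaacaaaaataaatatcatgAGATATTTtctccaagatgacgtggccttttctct
GI: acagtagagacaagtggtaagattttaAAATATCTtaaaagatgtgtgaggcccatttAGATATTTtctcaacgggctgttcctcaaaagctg
ELF4: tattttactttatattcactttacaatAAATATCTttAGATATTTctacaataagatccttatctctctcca
LUX: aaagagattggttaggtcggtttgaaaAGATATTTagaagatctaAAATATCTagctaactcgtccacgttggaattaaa
FKF1: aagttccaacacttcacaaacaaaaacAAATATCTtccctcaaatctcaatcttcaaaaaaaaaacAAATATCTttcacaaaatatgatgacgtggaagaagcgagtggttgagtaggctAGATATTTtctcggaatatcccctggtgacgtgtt

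Decreased regions lay at 23 of the 46 genes (50.0%), against 14.7% of all protein-coding genes. Increased regions lay at 24 of the 46 (52.2%), against 16.0% of all protein-coding genes. Regions of both kinds were present at 11 members (23.9%), against 3.35% of all protein-coding genes. A decreased region alone was found at 12 members and an increased region alone at 13, so 36 members had some region and 10 (21.7%) had none, where 72.6% of all protein-coding genes had none.

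All 14 clock genes had a region, with 9 (64.3%) decreased, 9 (64.3%) increased and 4 (28.6%) of both kinds. Among the 32 light signalling genes, 14 (43.8%) had a decreased region, 15 (46.9%) an increased one, 7 (21.9%) both and 10 (31.2%) none. By role, the COP1/SPA and DET1 group had increased regions at 5 of 6 genes and the ZTL family at 3 of 3, with decreased regions at 2 of 6 and 1 of 3. The PIFs had decreased regions at 4 of 6 genes and increased ones at 1 of 6, *PIF1*. Median gene length was 4693 bp for COP1/SPA and DET1, and was close between the ZTL family (2972 bp) and the PIFs (2959 bp).

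**Figure D1:**
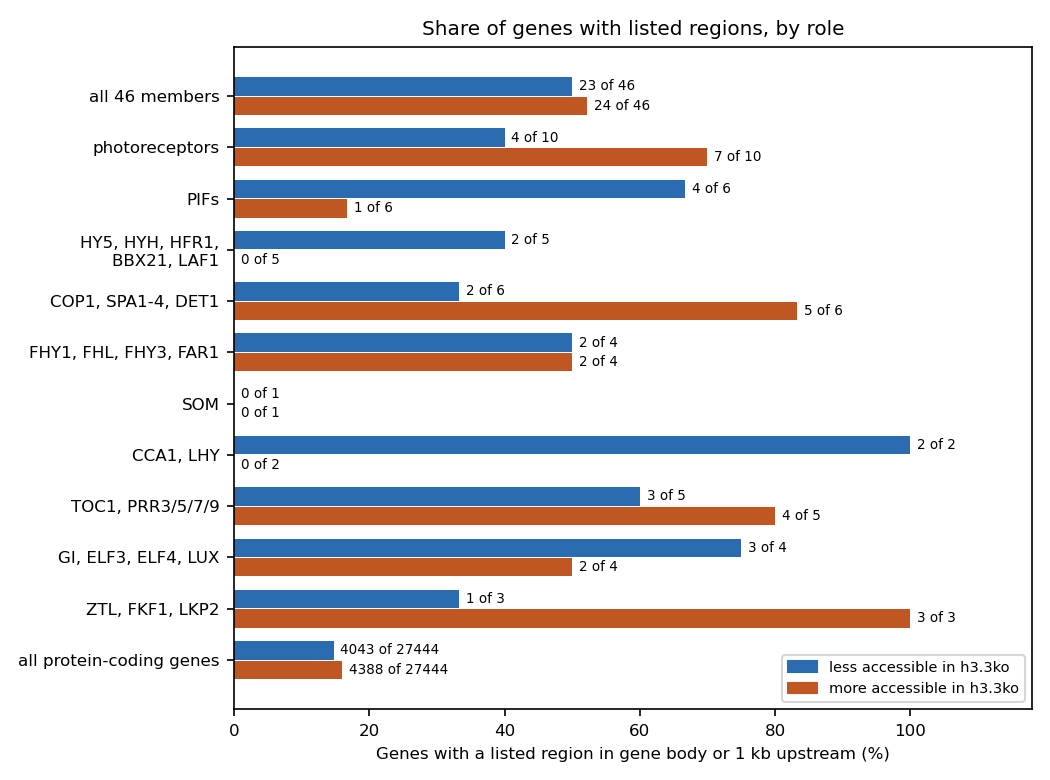
Bars give the percentage of genes in each role group with a listed region in the gene body or 1 kb upstream (horizontal axis), blue for less and orange for more accessible in h3.3ko seeds than in Col seeds, with the counts beside them. All 46 members (top) stand at 50.0% and 52.2%, and all protein-coding genes (bottom) at 14.7% and 16.0%; there are no replicates behind a bar, so no error is drawn.

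Gene length moves with these counts. The members had a median length of 3516 bp, against 2078 bp for all protein-coding genes, and longer genes more often had an increased region. Among genes of 4 kb or more, 14 of 18 members (77.8%) had one, against 35.0% of all such genes. Between 2.5 and 4 kb it was 8 of 15 members (53.3%) against 24.7%, and between 1.5 and 2.5 kb 2 of 9 (22.2%) against 11.3%. Under 1.5 kb, 0 of 4 members had an increased region, against 6.37%. Decreased regions varied less with length: they were at 7 of 18 members of 4 kb or more (38.9%) against 19.2%, at 9 of 15 (60.0%) against 18.3%, at 4 of 9 (44.4%) against 16.0%, and at 3 of 4 members under 1.5 kb against 8.60%. Within the 3 longer classes the members' share was above that of all genes for both kinds. The part of gene length in the members' counts was not tested.

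**Figure D2:**
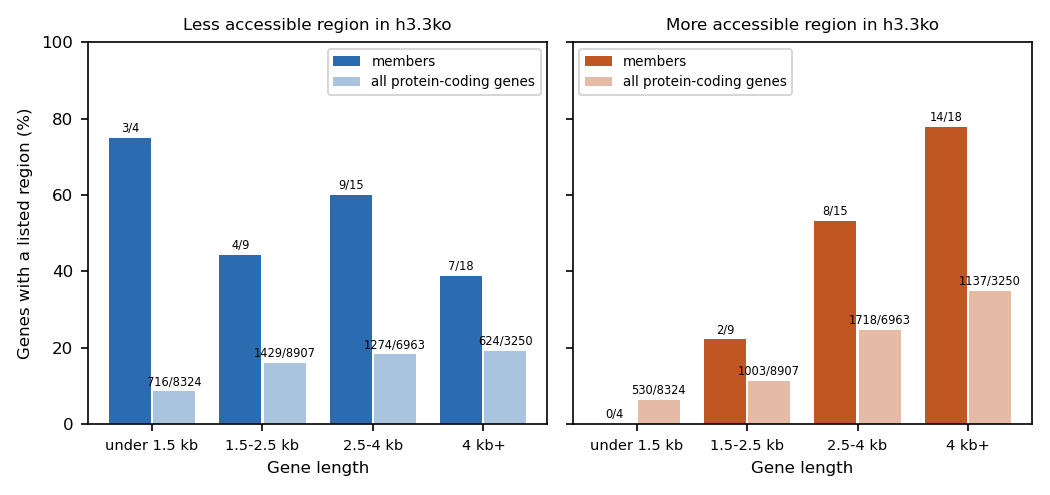
Bars give the percentage of genes with a less accessible (left panel) or more accessible (right panel) region in h3.3ko seeds, by gene length, dark for the 46 members and pale for all protein-coding genes, with counts above them. In the right panel the pale bars climb with length from 6.37% to 35.0%, and the members climb from 0 of 4 to 14 of 18.

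The regions were placed at opposite ends of the genes. All 25 decreased regions had their midpoint nearer the TSS than the transcription end site (TES), against 89.0% of the decreased regions assigned to any protein-coding gene. Their median midpoint was 198 bp upstream of the TSS (range -1158 to 435 bp), where it was 123 bp upstream over all genes, and 15 of 25 (60.0%) covered the TSS, against 54.5%. Bases were placed by the annotated transcript with the longest coding sequence, the main transcript. Of the decreased regions' bases, 74.9% were upstream of the gene, 13.6% in 5′ UTR and 2.37% in coding sequence. A further 9.12% were inside the gene but outside that transcript's exons, which takes in its introns and any stretch beyond its ends.

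All 27 increased regions were nearer the TES, against 75.2% over all protein-coding genes. The window reaches upstream and not downstream of a gene, which lets regions of upstream neighbours into that 75.2%. Among regions that overlapped the gene body, the 27 of 27 stand beside 93.3% over all protein-coding genes. The decreased regions of the members (18 of 18 not nearer the TES) stand beside 84.4%. Over all protein-coding genes of at least 2 kb, these shares were 96.4% and 86.7%. The increased regions had a median midpoint at 87.7% of the gene's length (range 70.4 to 104%), equal to the 87.7% over all genes, and 7 of 27 (25.9%) covered the TES, against 38.7%. Coding sequence made up 52.2% of their bases, gene sequence outside the main transcript's exons 22.3%, 3′ UTR 19.6% and sequence past the gene's end 5.91%. Placement at the start and at the end was thus also the pattern over all protein-coding genes.

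The members' decreased regions had a median width of 605 bp (270 to 1549 bp), against 493 bp over all protein-coding genes. Their increased regions had a median width of 733 bp (71 to 1822 bp), against 768 bp. Only 14 of the 25 decreased regions (56.0%) and 17 of the 27 increased regions (63.0%) belonged to the member gene alone, and the rest also fell in the window of 1 neighbour, which is named below where RefSeq gives it a symbol.

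**Figure D3:**
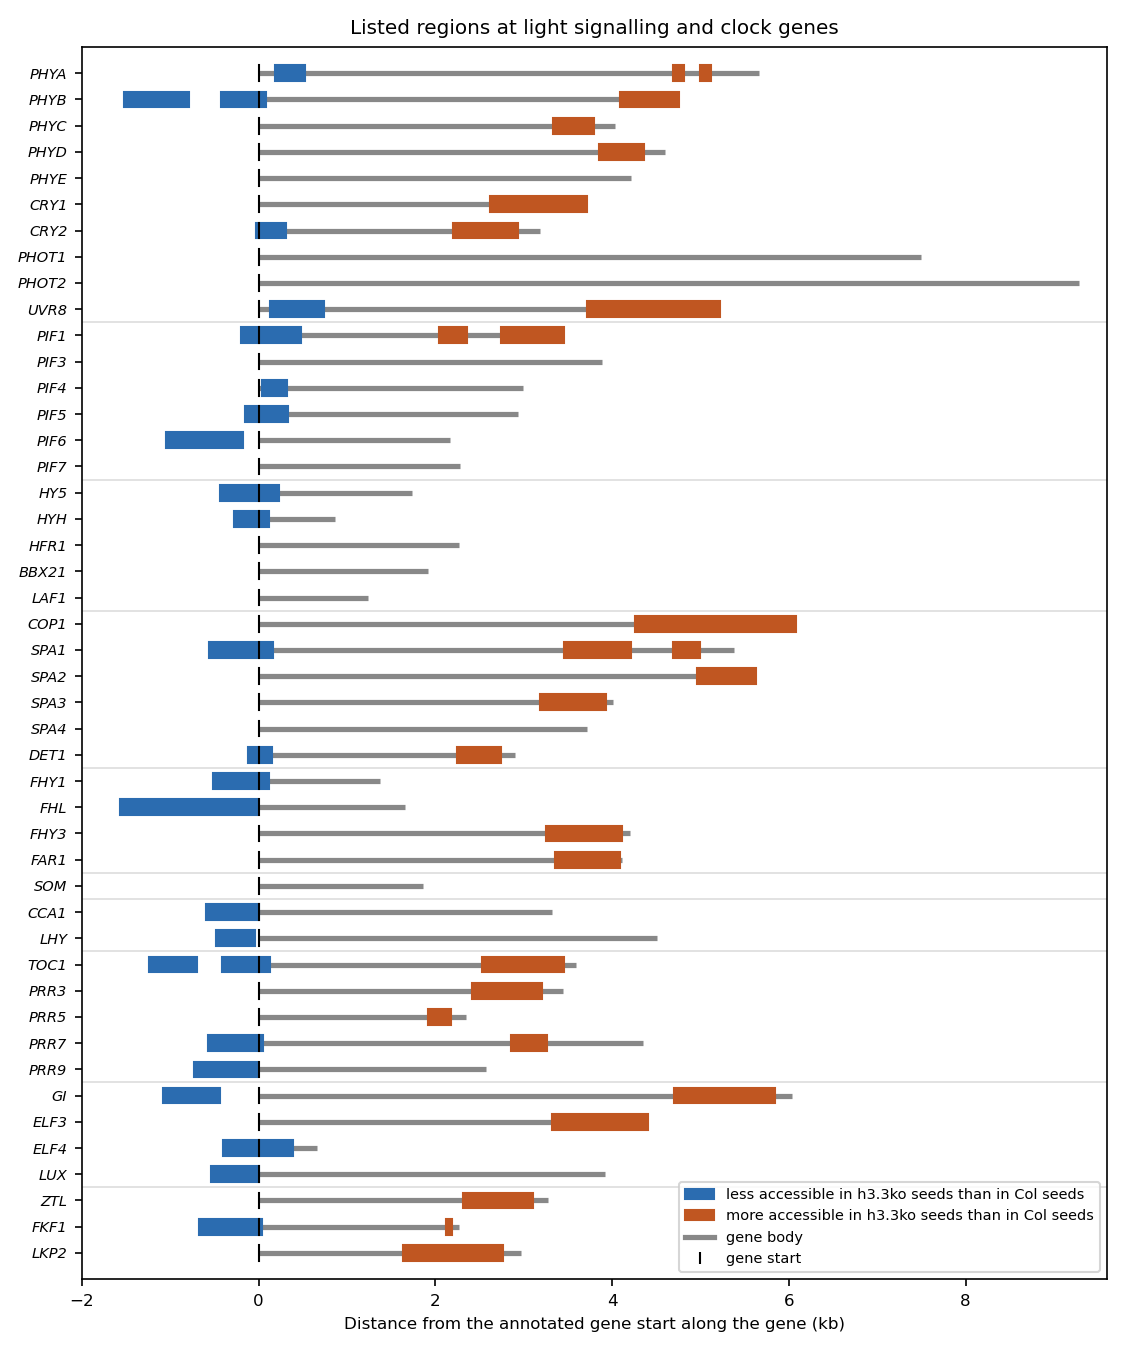
Each row is 1 of the 46 genes, drawn from its annotated start (black tick, 0 on the horizontal axis, in kb along the gene) to its end (grey line), with regions less (blue) and more (orange) accessible in h3.3ko seeds than in Col seeds, to scale; pale lines separate role groups. All 25 blue boxes lie near gene starts and all 27 orange boxes near gene ends, and 10 rows have no box.

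Of the phytochromes, *PHYA* (AT1G09570), the receptor for far-red and very weak light, had a decreased region of 348 bp (chr1:3100289-3100636). It lay 183 to 530 bp after the annotated start, wholly outside the exons of the main transcript. That region covered the start of 1 of the 6 annotated *PHYA* transcripts. Its increased regions were 2 narrow pieces of 121 bp (chr1:3095702-3095822) and 130 bp (chr1:3096000-3096129), which stood at width percentiles 0.262 and 0.291 of the increased list. *PHYB* (AT2G18790), the main red light receptor of seeds and seedlings, had 2 decreased regions, one of 516 bp over its TSS (chr2:8139325-8139840) and one of 739 bp centred 1158 bp upstream (chr2:8138229-8138967) that is also in the window of AT2G18780. The stretch printed above lies in the region over the TSS. Its increased region of 665 bp (chr2:8143845-8144509) ran over the TES and into the window of *XTH21*. *PHYC* (AT5G35840) and *PHYD* (AT4G16250), 2 further phytochromes, had increased regions only, of 465 bp wholly in coding sequence and of 511 bp, centred 468 and 492 bp before their ends. *PHYE* (AT4G18130) had no region, and the nearest decreased one was 3082 bp upstream.

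The blue light receptor *CRY1* (AT4G08920) had an increased region of 1100 bp over its TES. *CRY2* (AT1G04400), its close relative, had both kinds, with a decreased region of 346 bp over the TSS (chr1:1188386-1188731), mostly in 5′ UTR, and an increased one of 733 bp. The UV-B receptor *UVR8* (AT5G63860) also had both, a decreased region of 605 bp that began 133 bp after the TSS and an increased one of 1509 bp over the TES, at width percentile 90.4 of the increased list. *PHOT1* (AT3G45780) and *PHOT2* (AT5G58140), the phototropins that bend plants to blue light, had none although they are among the longest members at 7490 and 9287 bp. The nearest increased regions were 1286 bp upstream of *PHOT1* and 2262 bp upstream of *PHOT2*.

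Decreased regions stood at 4 of the 6 PIF genes. *PIF1* (AT2G20180, PIL5 in RefSeq), the PIF best known for repressing germination, had 689 bp over its TSS (chr2:8706525-8707213), which covered the starts of all 8 annotated transcripts. It was also the one PIF with increased regions, of 313 bp within the gene and of 709 bp across the TES, the wider one being shared with AT2G20170. *PIF4* (AT2G43010), a regulator of warmth and shade growth, had 281 bp inside the gene and outside the exons of its main transcript. The region began 40 bp after the annotated start and was 6 bp from the nearest transcript start. *PIF5* (AT3G59060, PIL6), its close relative, had 489 bp over the TSS. *PIF6* (AT3G62090, PIL2), a PIF linked to seed dormancy, had 873 bp wholly upstream (chr3:22990887-22991759), ending 178 bp before the TSS and holding 3 G-boxes, of which a pair is printed above. *PIF3* (AT1G09530) and *PIF7* (AT5G61270) had none, and their nearest decreased regions were 2595 bp upstream and 2852 bp downstream.

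Among the light-promoting transcription factors, the bZIP factor *HY5* (AT5G11260) had a decreased region of 669 bp over its TSS (chr5:3594842-3595510), shared with *OCP3*. Its homologue *HYH* (AT3G17609) had 393 bp over the TSS, shared with *RBL14*. Increased regions were at 0 of the 5 genes of this group, whose median length was 1739 bp. The atypical bHLH factor *HFR1* (AT1G02340), the B-box factor *BBX21* (AT1G75540) and the MYB factor *LAF1* (AT4G25560) had none, the nearest region to *LAF1* being an increased one 1076 bp upstream.

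Increased regions led in the group of light signalling repressors. *COP1* (AT2G32950), the ubiquitin ligase subunit, had the widest increased region of any member at 1822 bp (chr2:13982137-13983958), at width percentile 96.2 of the increased list, running over its TES. Its partner *SPA1* (AT2G46340) had a decreased region of 723 bp over the TSS, shared with AT2G46360, and increased regions of 758 and 316 bp. *SPA2* (AT4G11110) and *SPA3* (AT3G15354), 2 more COP1 partners, had increased regions of 665 and 745 bp, each shared with a neighbour. *DET1* (AT4G10180), a repressor that acts in a complex with DDB1, had the narrowest decreased region of any member at 270 bp, centred 12 bp after the TSS, and an increased one of 501 bp. *SPA4* (AT1G53090) had none within the window, but an increased region began 39 bp past its end.

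Each of the 4 phyA import and activator genes had 1 kind of region. *FHY1* (AT2G37678) and *FHL* (AT5G02200) encode the carriers that take phyA into the nucleus, and both had a decreased region only. The *FHY1* region was 633 bp over the TSS (chr2:15802681-15803313), shared with AT2G37680. The *FHL* region was 1549 bp upstream (chr5:435798-437346), shared with *PCS1* and stood at width percentile 99.0 of the decreased list. *FHY3* (AT3G22170) and *FAR1* (AT4G15090) encode the transposase-derived factors that switch on *FHY1* and *FHL* by binding CACGCGC, and both had an increased region only. These were 859 bp and 736 bp wide and centred 517 and 394 bp before the TES, the *FAR1* one being shared with *LigB*. The 2 pairs differ in length, at 1376 and 1655 bp for *FHY1* and *FHL* and 4200 and 4114 bp for *FHY3* and *FAR1*. Increased regions were at 6.37% of all protein-coding genes under 1.5 kb, 11.3% between 1.5 and 2.5 kb and 35.0% of 4 kb or more. Decreased ones were at 8.60%, 16.0% and 19.2%. The part of length in this split was not tested. The stretches of *FHY1* and *FHL* printed above each hold 1 CACGCGC. *SOM* (AT1G03790), the zinc finger repressor of germination under PIF1, had no region in its window, with a decreased one 1054 bp upstream.

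In the clock, both dawn MYB genes had a decreased region and no increased one. *CCA1* (AT2G46830) had 602 bp that ended at the base after its TSS (chr2:19244991-19245592), shared with *PSI-P*. *LHY* (AT1G01060) had 448 bp that stopped 40 bp short of its TSS (chr1:37911-38358). Its gene body of 4507 bp carried no increased region, while 35.0% of all protein-coding genes of 4 kb or more had one.

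The PRR genes, which repress *CCA1* and *LHY* in turn, had increased regions at 4 of 5 and decreased ones at 3 of 5. *TOC1* (AT5G61380), the evening PRR, had 2 decreased regions of 541 bp over the TSS (chr5:24674554-24675094) and of 545 bp further upstream, both shared with AT5G61370, and an increased one of 936 bp. *PRR7* (AT5G02810) had a decreased region of 627 bp over the TSS, shared with *RHL2*, and an increased one of 407 bp wholly in coding sequence. *PRR9* (AT2G46790), the PRR that acts first after dawn, had a decreased region of 715 bp that ended 16 bp before the TSS. *PRR3* (AT5G60100) and *PRR5* (AT5G24470) had increased regions only, of 795 and 264 bp, and a decreased region stood 1062 bp upstream of *PRR5*, just outside the window.

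Evening genes had decreased regions at 3 of 4. *GI* (AT1G22770), a large protein that links the clock to flowering and stabilises ZTL, had the most distant pair, with a decreased region of 639 bp centred 761 bp upstream (chr1:8060671-8061309) and an increased one of 1140 bp shared with *PFL*. *ELF4* (AT2G40080), the shortest member at 660 bp, had a decreased region of 794 bp centred 8 bp before its TSS, which reached 388 bp into the gene. *LUX* (AT3G46640, PCL1), the DNA-binding part of the evening complex, had 544 bp that reached 4 bp past the TSS, shared with AT3G46630. *ELF3* (AT2G25930), the scaffold of that complex, had only an increased region, of 1084 bp over its TES, shared with *ALPHA-VPE*.

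All 3 genes of the ZTL family, F-box proteins that mark clock and flowering repressors for breakdown, had an increased region. *ZTL* (AT5G57360) had 794 bp and *LKP2* (AT2G18915) 1134 bp, each shared with a neighbour. *FKF1* (AT1G68050) had the narrowest increased region of any member, 71 bp, and in addition a decreased region of 710 bp over its TSS (chr1:25507966-25508675). The 71 bp region is the one increased call that an overlap minimum of 100 bp removes.

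The 11 genes with both kinds all carried them in the same order, decreased towards the 5′ end and increased towards the 3′ end. That order follows from the placement above, where every decreased midpoint was nearer the TSS and every increased one nearer the TES. Its share among all protein-coding genes with both kinds was not counted. The genes were *PHYA*, *PHYB*, *CRY2*, *UVR8*, *PIF1*, *SPA1*, *DET1*, *TOC1*, *PRR7*, *GI* and *FKF1*. The midpoints nearest each other were 2061 bp apart at *PIF1* and 6032 bp at *GI*, with a median of 3325 bp.

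The words that light and clock factors bind were then counted as exact matches on both strands, over the whole of each region. The G-box was in 13 of the 25 decreased regions (52.0%), against 33.9% of all decreased regions. It was in 1 of the 27 increased regions, against 11.6% of all increased regions. In promoters of 300 bases (250 before to 50 after the TSS), it was at 10 of the 46 members (21.7%), against 7.68% of all protein-coding genes. Members with most G-boxes were *FHL* with 4 and *PHYB* and *PIF6* with 3 each, followed by *PRR9* with 2. The *FHL* matches 608 and 1310 bp upstream of its TSS lie inside another annotated gene. A *PHYB* match lies 1228 bp upstream, beyond the 1 kb window. *UVR8*, *PIF4*, *PIF5*, *SPA1*, *CCA1*, *LHY*, *PRR7* and *LUX* had 1 each. When only the central 200 bp of each region was searched, 7 of the 25 held a G-box, against 17.9% of all decreased regions.

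Evening elements were in 7 of the 25 decreased regions (28.0%), against 9.98% of all decreased regions. They were in 0 of the 27 increased regions, against 6.34% of all increased regions, and in the promoters of 7 of the 46 members (15.2%), against 5.65% of all protein-coding genes. The 19 matches gave 1.24 per kb of region, against 0.216 per kb over all decreased regions. At least 3 matches were present in 4 of the 25 (16.0%), at *FKF1* (5), *ELF4* (4), *GI* (3) and *LUX* (3), and in 15 of all 3278 decreased regions (0.458%). Clock genes held 16 of the 19 matches, all at *TOC1*, *GI*, *ELF4*, *LUX* and *FKF1*. The light genes held 3, at *CRY2* (2) and *PIF6* (1). The decreased regions of the 4 other clock genes, *CCA1*, *LHY*, *PRR7* and *PRR9*, had no evening element and held 1 or 2 G-boxes each, and *LUX* was the clock gene with both words.

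**Figure D4:**
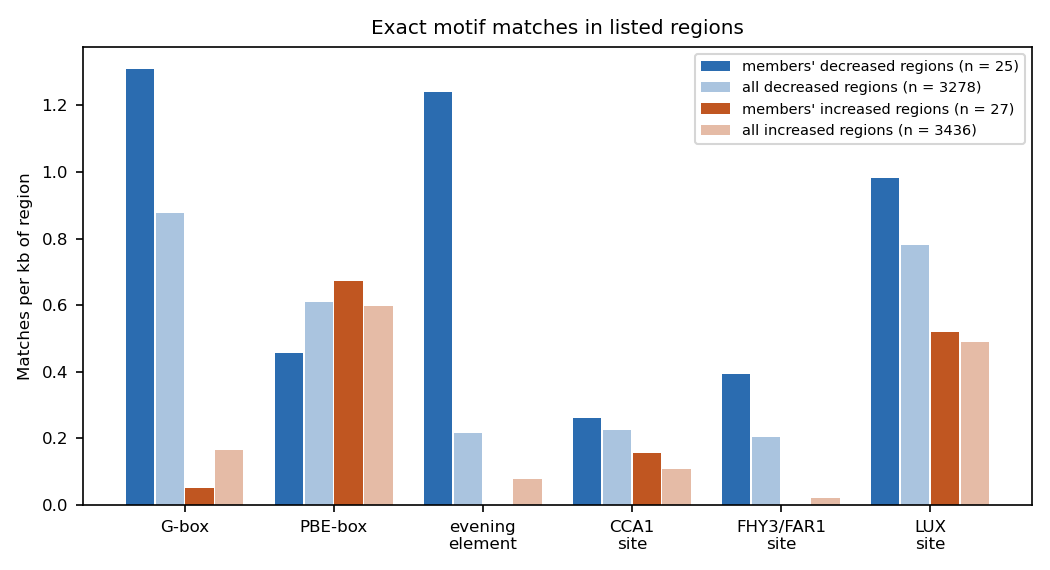
Bars give exact matches per kb of region (vertical axis) for 6 DNA words, dark blue for the members' decreased regions, pale blue for all decreased regions, dark orange for the members' increased regions and pale orange for all increased regions. The evening element stands at 1.24 per kb in the members' decreased regions and 0.216 per kb in all decreased regions, and at 0 in the members' increased regions.

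The word CACGCGC was in 5 of the 25 decreased regions (20.0%), against 9.12% of all decreased regions, at *PHYB*, *FHY1*, *FHL*, *CCA1* and *ELF4*. *ELF4* counted 2 matches that overlap on opposite strands. Promoters held it at 10.9% of the members, against 1.34% of all protein-coding genes. The LUX-binding words GATACG and GATTCG were in 13 of 25 (52.0%), against 33.7% of all decreased regions. Their matches per kb were closer, at 0.981 against 0.780, and promoters held them at 17.4% of the members, against 14.5%. The CCA1-binding word AAAAATCT was in 4 of 25 (16.0%), against 11.2%, at *PIF6*, *SPA1* and the clock genes *LHY* and *PRR9*. The PIF-bound variant CACATG was in 5 of 25 (20.0%), against 26.9%, and in the promoters of 13.0% of the members, against 12.9%. None of the 6 words was in the decreased regions of *PHYA*, *PIF1*, *HYH* or *DET1*. A match is a run of letters and was not tested as a binding site, and the members' decreased regions were wider at the median, which gives them more letters to match.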

How the data were processed

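ATAC-seq libraries of sorted nuclei were made from *h3.3ko* and Col mature seeds, 2 biological replicates each. Per the study's methods, the authors trimmed reads with fastp 0.20.1, aligned them with Bowtie2 to the TAIR10 genome, dropped organelle and duplicate reads (Picard 2.24.0), called peaks with MACS2, kept peaks found in both replicates and merged those of both genotypes. They scored the merged peaks with deepTools and deposited those past their fold and adjusted P thresholds, as a decreased and an increased list. The test behind the adjusted P and any Tn5 read shift are not given in the sources used here. Each deposited row holds coordinates and the authors' own log2 fold change between the genotypes, which was not used. With no count or level per library, no error, interval or test could be computed.

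Regions were joined with Python 3.11.15 and numpy 2.4.6 to the RefSeq annotation of TAIR10.1, and starts were written from 1. To check the coordinates, regions were shifted: 68.6% of decreased midpoints were within 500 bp of a TSS in place, against 18.3% when moved 1000 bp down and 18.0% when moved 1000 bp up the chromosome. The overlap function was tested on simulated data. Sequences are from RefSeq TAIR10.1, with up to 27 bases on each side of a match. Every member is named. The members, the wider gene list and the 6 words were chosen with earlier results of these data known. The alternatives were other windows, overlaps, backgrounds and search spans, and the classes of gene length were added after seeing the data.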

Additional observations from a re-analysis of the deposited data

How the results depend on the processing

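Across other windows, overlap rules and gene assignments, 18 to 25 members had a decreased region, 23 to 26 an increased one and 10 to 12 both, and 23 of 24 recounts of members or regions stayed within 1.5 times the reported count. The exception was the G-box, in 7 decreased regions when the central 200 bp were searched, against 13 over whole regions. The shares of all protein-coding genes also moved with the setting. Counting the gene body alone gave 10.5% decreased and 2.53% both, and giving each region to 1 gene gave 11.8% increased. A 2 kb upstream window gave 17.2% decreased and 17.9% increased, and adding 1 kb downstream gave 4.14% both. Counting the gene body alone removed the decreased calls of *FHL*, *GI*, *LHY*, *PIF6* and *PRR9*. A 2 kb upstream window added decreased calls at *PRR5* and *SOM* and increased ones at *LAF1* and *PHOT1*. Giving each region to 1 gene removed the decreased calls of *LUX* and *PRR7* and the increased calls of *ELF3* and *FKF1*, and added a decreased call at *PRR5* and increased calls at *PHOT1* and *SPA4*. Among genes of at least 2 kb, the 38 members stood at 47.4% decreased, 63.2% increased and 28.9% both, against 18.4%, 23.9% and 5.80% of all protein-coding genes. No paired analysis was possible because the lists hold no value per library, and leaving out each replicate was not run for the same reason. Depth per library was not used here, and a member with no region may differ by less than the authors' calling could detect.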

Other observations

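A wider list of 61 light, clock and photoperiod genes that are not among the 46 had decreased regions at 18 (29.5%), increased regions at 19 (31.1%) and both at 6 (9.84%), with 30 having none. All protein-coding genes stood at 14.7%, 16.0% and 3.35%. Of its 18 clock genes, 10 (55.6%) had a decreased region and 4 (22.2%) an increased one. All of *LNK1* to *LNK4*, co-activators that work with the RVE factors, had a decreased region, of 439, 415, 571 and 809 bp, each over the TSS. The genes named from this list, other than those with both kinds, were picked out after their values were seen. Of the listed MYB genes related to *CCA1*, *RVE8* and *RVE4* (LCL1 in RefSeq) had decreased regions over the TSS, of 323 and 598 bp, and *RVE2* had one of 252 bp, whereas *RVE1*, *RVE7* (EPR1) and AT5G52660 had no region.

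The 14 genes of the COP10 and COP9 signalosome complexes, which work with COP1 in protein breakdown, had decreased regions at 2 (14.3%), close to the 14.7% of all protein-coding genes, and increased regions at 7 (50.0%), against 16.0%. Their median length was 2803 bp, and 24.7% of all protein-coding genes of 2.5 to 4 kb had an increased region. The part of length in that count was not tested. The 6 photoperiod genes had decreased regions at 0 and increased ones at 4 (66.7%), against 14.7% and 16.0% of all protein-coding genes. The 13 photoreceptor partners had decreased regions at 3 (23.1%) and increased ones at 2 (15.4%). For the 10 light-regulated transcription factors it was 3 (30.0%) and 2 (20.0%). Both kinds were present at *RVE4*, *TIC*, AT4G33980, *DDB1A*, *TZP* and *LZF1*. At *LZF1* the increased region was centred 871 bp upstream of the TSS and the decreased one 154 bp upstream, an order opposite to that at the 11 members with both kinds. Other increased regions of the wider list also lay towards the 5′ side, centred 854 bp upstream of *CSN1*, 725 bp upstream of *RUP1*, 342 bp upstream of *PAR2* (covering its TSS), 822 bp upstream of *CDF1* and 518 bp after the TSS of *CO*. *CSN1* had a further increased region within the gene.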
